A study of Mus musculus with 7 samples.

Results

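The miR-297, miR-466, miR-467 and miR-669 families are groups of mouse microRNAs that share related, repeat-like sequences. Their members were taken by name, as every miRNA on the array whose name begins with one of these 4 numbers, and no measured value was used. The rule gave 41 members among the 696 mouse miRNAs of the array, read by 112 of its 1937 probes. By family these were 3 for miR-297, 14 for miR-466, 10 for miR-467 and 14 for miR-669.

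Kidney RNA came from male C57BL/6 mice aged 9 to 12 weeks at purchase, and was hybridized to 1-colour Agilent mouse miRNA arrays with Cy3. All mice had pentobarbital anesthesia and a laparotomy, followed either by ligation of the left ureter (unilateral ureteral obstruction, UUO) or by a sham operation in which the ureter was only identified. Kidneys were collected at day 28. The deposited labels name the RecoverAll kit for their total RNA, whereas the study's methods name the miRNeasy Mini kit for tissue and RecoverAll for human fixed samples, so the kit used is not settled. Of the 7 arrays analysed here, 4 carried the group label non-treated (replicates 1 to 4) and 3 the label treated (replicates 1, 3 and 4). The record does not say which label stands for obstruction. Every direction below is therefore given by label, as labelled treated against labelled non-treated, and the study's own list of differing miRNAs has its signs the other way round. RNA of a whole kidney mixes many cell types, so fewer cells of a type and less RNA per cell cannot be told apart. The legend of the study's array figure counts its groups in mice and gives both groups the same size. The treated label has fewer arrays here than the non-treated label. The sources do not otherwise say which kidney came from which mouse, and p-values then measure the spread between these arrays.

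A microRNA is a short RNA cut from a hairpin precursor, and it lowers the output of messenger RNAs that pair with its seed, bases 2 to 8 of the mature strand. Most hairpins of the 4 families lie in a large cluster inside Sfmbt2, a Polycomb-group gene known for imprinted expression from the paternal copy in placenta and early embryo. The cluster is found in rodents and grew by repeated duplication, which left many near-identical mature strands with runs of alternating bases. Such strands can bind each other's probes, so the signal of any 1 member is uncertain to that extent.

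In the RefSeq annotation (GRCm38.p6), 71 of 81 hairpin genes of the 4 families lay within the span of Sfmbt2 on chromosome 2. For 32 of the 41 members all hairpins were inside it, for miR-466f-3p and miR-466f-5p some were, and for 6 members none was. The name of 1 member, miR-466a-5p, was not matched. The array design names another genome build (mm9), so only gene names and neighbourhood were taken from this annotation.

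RefSeq held a mature sequence under the array's name for 6 of the 41 members, and these were the 6 whose hairpins lie outside Sfmbt2. They are shown for their repeats of alternating bases, with the seed in capitals and each strand written 5′ to 3′.
miR-467f: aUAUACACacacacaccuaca
miR-466i-3p: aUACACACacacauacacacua
miR-467g: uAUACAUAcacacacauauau
miR-669n: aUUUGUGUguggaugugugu
miR-466k: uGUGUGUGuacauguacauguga
miR-466j: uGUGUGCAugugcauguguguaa

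No seed was shared among these 6. MiR-467f, miR-466i-3p and miR-467g carried alternating C and A, with longest runs of 12, 11 and 9 bases. MiR-466k, miR-669n and miR-466j carried alternating U and G, with longest runs of 9, 8 and 7 bases. All 6 held ACACAC or UGUGUG, searched on the mature strand only. The motifs are themselves alternating runs, the feature for which the 6 are shown, so this count is no independent result. Of the 220 miRNAs of the array with a matched sequence, 12 (5.45%) held either motif, and these 12 include the 6 members. Outside the families the share was 2.80%. A match describes the letters and not a binding site.

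The families were near the limit of the array in kidney. Agilent's software called 10 of the 41 members (24.4%) detected on at least 1 array, against 290 of all 696 miRNAs (41.7%). No member of miR-297 was detected, and 3 of 14 members of miR-466, 4 of 10 of miR-467 and 3 of 14 of miR-669 were. By position, 6 of the 32 members inside Sfmbt2 were detected, against 3 of the 6 outside it (miR-467f, miR-466i-3p and miR-669n) and 1 of the 2 with hairpins in both places (miR-466f-3p). The other 31 members were detected on no array, and their summed signals ran from -3.26 to 4.74, the highest being miR-466g. Negative control spots, which match no mouse miRNA, averaged between -0.342 and 0.0798 on the 7 arrays with a spot SD between 0.880 and 1.01. These signals are intensities after background subtraction, averaged over a probe's spots and then added up over its probes. No spot was saturated on any array. With a stricter call, most spots of at least 1 of its probes well above background, 6 members were detected on at least 1 array.

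Detection of members by array overlapped between the labels. On the arrays labelled non-treated, replicates 1 to 4 detected 8, 10, 3 and 5 members, and on those labelled treated, replicates 1, 3 and 4 detected 3, 4 and 2. Non-treated replicate 3 detected as many members as treated replicate 1 and fewer than treated replicate 3. All 10 detected members were detected on a non-treated array and 4 of them also on a treated one, with 0 detected on treated arrays alone. The whole array had 260.2 ± 21.1 (SD, n = 4) miRNAs detected on the non-treated arrays and 203 ± 10.5 (SD, n = 3) on the treated. The 186 miRNAs that every array detected had a mean log2 signal of 7.24 ± 0.40 (SD, n = 4) on the non-treated arrays and 6.09 ± 0.32 (SD, n = 3) on the treated. The part of this difference in the counts was not tested.

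**Figure D1:**
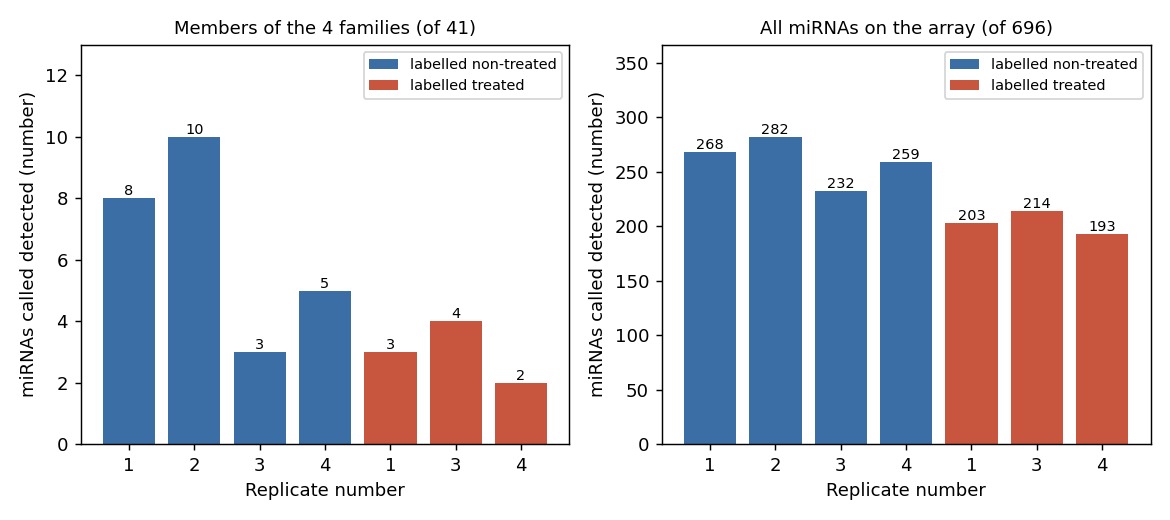
Number of miRNAs called detected on each array, for the 41 members (left) and for all 696 miRNAs (right), with bars coloured by deposited label and the count printed above each bar. Members detected range from 3 to 10 on the 4 non-treated arrays and from 2 to 4 on the 3 treated arrays, while the lowest non-treated array still detects 232 of all miRNAs and treated replicate 1 detects 203.

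Before any scaling between arrays, 10 of the 41 members (24.4%) had every treated array below every non-treated array, and 0 had the opposite. Over all 696 miRNAs the shares were 31.5% and 3.74%, so the members' share was not above that of the array as a whole. 7 of these 10 were detected members. The summed signal of all 41 members was 99.1, 127, 54.6 and 82.6 on the non-treated arrays and 32.7, 49.6 and 13.5 on the treated ones. Before scaling, every treated array was thus below every non-treated array for the families as a sum. The treated arrays were also dimmer over the shared miRNAs, with a mean log2 signal of 6.09 against 7.24. No scaled sum was computed, so whether the sum differs after scaling was not tested. On each non-treated array the highest signal among the members was that of miR-669f-3p.

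**Figure D2:**
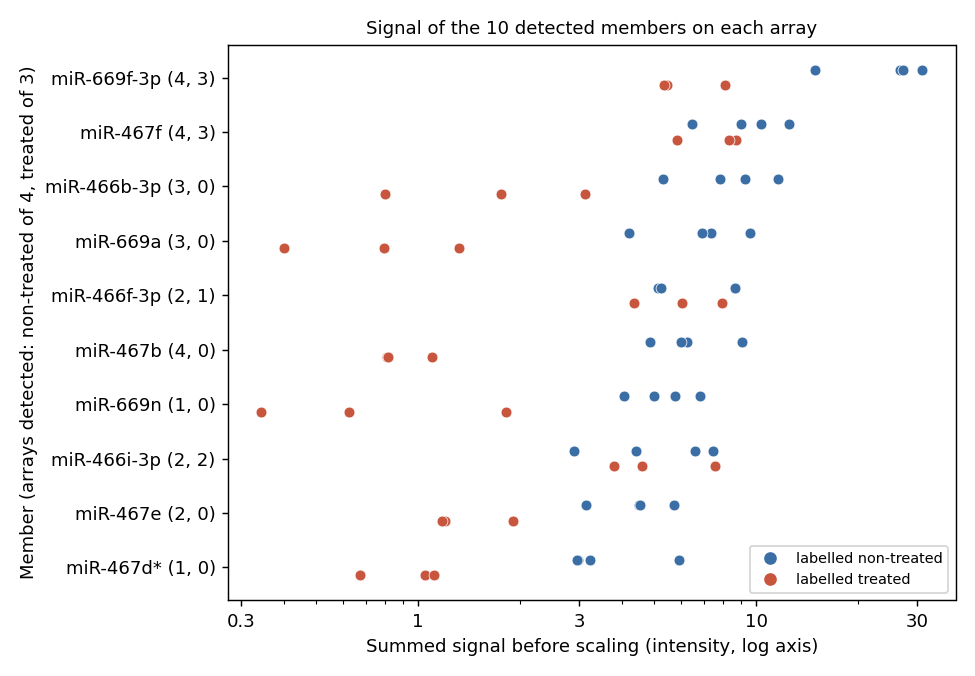
Summed signal before scaling (intensity, log axis) of the 10 members detected on at least 1 array, with 1 point per array coloured by deposited label, and the number of arrays of each label on which the member was detected in parentheses. The groups do not overlap for 7 members, and they overlap for miR-467f, miR-466f-3p and miR-466i-3p, whose treated arrays lie between 3.81 and 8.71.

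MiR-669f-3p is a 3′ strand of the miR-669 family from inside Sfmbt2, and it was detected on all 7 arrays. Its signals were 26.7, 31.1, 14.9 and 27.2 on non-treated replicates 1 to 4 and 5.47, 8.10 and 5.36 on treated replicates 1, 3 and 4. The treated arrays were all below the non-treated ones. MiR-467f, from the miR-467 family but from a hairpin outside Sfmbt2, was the only other member detected everywhere. Its signals were 12.5, 10.4, 6.45 and 9.05 on the non-treated arrays and 8.71, 8.34 and 5.82 on the treated ones. Here the groups overlapped before scaling. The standard error over spots was between 0.295 and 0.839 for miR-467f and between 0.401 and 1.85 for miR-669f-3p.

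To compare arrays, each was brought to the same mean log2 signal over the 186 shared miRNAs, and scaled signals under a floor of 5.85 were set to it. The floor is the highest, over arrays, of the lowest scaled signal called detected, where treated replicate 4 counts at -1.78 because a miRNA with a signal below 0 was called detected on it. Scaled, miR-669f-3p was at 17.0, 18.2, 15.9 and 17.3 on the non-treated arrays and at 8.90, 10.1 and 10.4 on the treated. MiR-467f was at 7.99, 6.07, 6.90 and 5.74 on the non-treated arrays and at 14.2, 10.4 and 11.3 on the treated. Scaled, neither member's groups overlapped, and the members moved in opposite directions. One non-treated value of miR-467f, that of replicate 4, lay below the floor and was raised to it.

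The log2 signal of miR-669f-3p was 4.10 ± 0.079 (SD, n = 4) on the non-treated arrays and 3.29 ± 0.12 (SD, n = 3) on the treated. By limma the difference, treated minus non-treated, was -0.80 on the log2 scale with a standard error of 0.075 (adjusted p = 7.94e-05). For miR-467f the log2 signal was 2.73 ± 0.20 (SD, n = 4) on the non-treated arrays and 3.57 ± 0.23 (SD, n = 3) on the treated. Its limma difference was 0.83 with a standard error of 0.147 (adjusted p = 0.00205). The exact permutation test over the 35 splits of 7 arrays, 2-sided, gave p = 0.0571 for each, the smallest value this design allows.

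**Figure D3:**
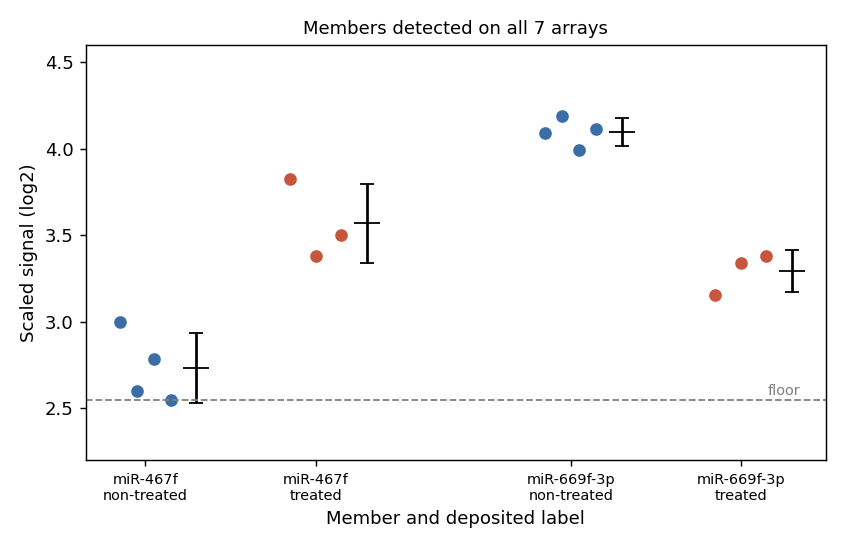
Scaled log2 signal of miR-467f and miR-669f-3p, with 1 point per array by deposited label, the mean and SD beside the points (n = 4 non-treated, n = 3 treated), and the floor as a dashed line. Treated arrays lie above non-treated arrays for miR-467f and below them for miR-669f-3p.

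Each member has a pair of probes on the array, and both probes moved the same way. The mean scaled signal on treated arrays was 0.533 and 0.774 times that on non-treated arrays for the probes of miR-669f-3p, and 1.97 and 1.71 times for those of miR-467f. Probes to 1 miRNA read the same RNA and are not replicates.

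Scaling decided the sign of miR-467f. Without scaling its log2 fold change was -0.31 with a standard error of 0.32 (limma adjusted p = 0.361), and with spike-in controls, the mean of all miRNAs or the 75th percentile of the shared miRNAs it was 0.37, 0.33 and 0.59 and did not pass the threshold. MiR-669f-3p stayed lower and past the threshold under all 7 scalings, from -1.96 to -0.56. The median over all 236 miRNAs tested shifted with the scaling, from -1.20 without any to 0.11 when the 75th percentile over the array was used, against -0.084 as reported. Relative to that median, miR-467f was higher by 0.88 to 0.93 and miR-669f-3p was at -0.76 to -0.62 across the 7 scalings. Except for quantile normalization, a scaling divides each array by a constant, which shifts a member and the median nearly together. The narrow ranges follow from this and do not show that the rise of miR-467f holds under every scaling. A ratio of the 2 members needs no scaling. The signal of miR-669f-3p was 2.13, 2.996, 2.31 and 3.01 times that of miR-467f on the non-treated arrays and 0.628, 0.971 and 0.921 times on the treated. No array overlapped, and the log2 ratio differed by -1.65 (exact permutation p = 0.0571, 2-sided, n = 4 and 3). These ratios compare probe brightness and not the abundance of the 2 RNAs, and only their change between arrays can be read.

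**Figure D4:**
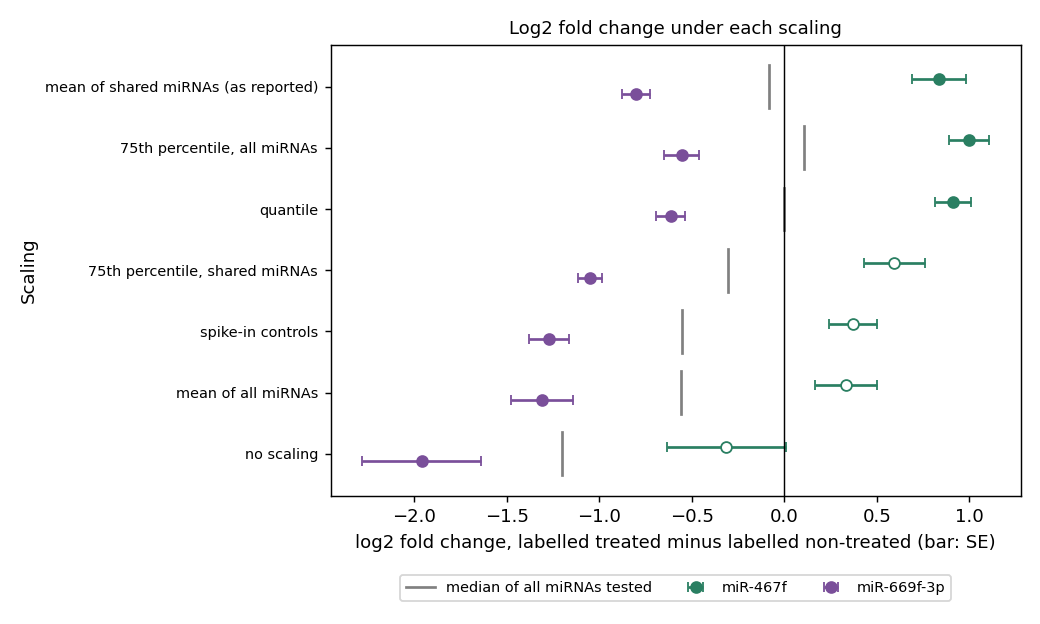
Log2 fold change of miR-467f and miR-669f-3p, labelled treated minus labelled non-treated, under 7 scalings, with SE bars, filled points where the limma adjusted p is below 0.01, and the median of all miRNAs tested as a grey line. MiR-467f runs from -0.31 to 0.999 and miR-669f-3p from -1.96 to -0.56, each on its own side of the median under every scaling drawn. The median shifts with the scaling nearly as the members do, so the side on which each lies hardly depends on it.

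Across the array, 236 miRNAs were detected on every array of at least 1 label and were tested, and 55.1% of them passed an adjusted p below 0.01, 23.3% higher and 31.8% lower on the treated arrays. Only 3 members could enter this test, and 2 passed, 1 in each direction. A count of 2 of 3 against a background of 55.1% is no result about the families. The share called lower shifted with the filter. With only the miRNAs detected on all arrays, 55 were called higher and 56 lower, against 55 and 75 as reported. The third tested member was miR-467b, from inside Sfmbt2. It was detected on all 4 non-treated arrays and on 0 treated arrays, and its scaled signals, 3.81 to 5.34 against 1.31 to 1.59, all lay under the floor, which left a fold change of 0.

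The lowest scaled signal called detected was between 1.99 and 2.49 on the non-treated arrays and, among signals above 0, between 5.34 and 6.71 on the treated. A member could therefore be called detected at a lower level on a non-treated array. Detection on non-treated arrays alone, seen for miR-466b-3p, miR-467b, miR-467d*, miR-467e, miR-669a and miR-669n, cannot be told apart from this difference in limit. None of the 6 had a non-treated mean above the treated limit of 5.94, so no bound on a fold can be given for them. MiR-466b-3p came nearest, at 5.80.

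To describe the faint members, a fit without the detection filter and with the floor lowered from 5.85 to 1.46 was added after the data had been seen. It took in 401 miRNAs, those above this lower floor on at least 1 array, and called 36.7% of them, 15.2% higher and 21.4% lower. Of 19 members in it, 8 passed, 3 higher and 5 lower, a share close to the background. The median log2 fold change was 0.0018 over these 19 and -0.043 over all 401. Between 4 and 7 members passed when each array was left out in turn, with 120 to 165 miRNAs called in all, and 3 members passed in each of these fits (miR-467b, miR-669a and miR-669f-3p). The count was 4 without treated replicate 4, and 5 without treated replicate 3 or non-treated replicate 2.

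The 5 that fell were miR-467b, miR-467e, miR-669a, miR-669f-3p and miR-669n. MiR-669a had unscaled signals of 4.22 to 9.59 on the non-treated arrays and 0.401 to 1.32 on the treated, which gave -1.65 on the log2 scale with a standard error of 0.106 (limma adjusted p = 2.88e-05). MiR-467b had 4.85 to 9.11 against 0.807 to 1.10, which gave -1.59 with a standard error of 0.143 (limma adjusted p = 1.31e-04). MiR-669n, the only 1 of the 5 from outside Sfmbt2, had 4.07 to 6.81 against 0.344 to 1.83, and miR-467e had 3.13 to 5.73 against 1.18 to 1.91. On this scale their log2 fold changes were -1.15 and -0.50. All 5 were lower and past the threshold under the 6 scalings tried in this fit, except miR-467e when the 75th percentile over the array was used (limma adjusted p = 0.199). MiR-467e did not pass, however, when any single array was left out. MiR-669n did not pass without treated replicate 1 or without treated replicate 4. The treated signals of these members other than miR-669f-3p were under the detection limit there, so the sizes rest on the floor chosen. For miR-669a, miR-467b and miR-669n, some scaled treated signals lay under the floor of 1.46 and were set to it. This narrows the spread within the group, so their standard errors and p-values rest on the floor as well.

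The 3 that rose were miR-467f, miR-466f-3p and miR-466i-3p. MiR-466i-3p had unscaled signals of 2.90 to 7.45 on the non-treated arrays and 3.81 to 7.54 on the treated. MiR-466f-3p had 5.11 to 8.67 against 4.36 to 7.93. Unscaled, these groups overlapped throughout, and scaled signals were 2.80 to 4.75 against 7.41 to 9.43 for miR-466i-3p and 3.32 to 5.52 against 8.47 to 9.92 for miR-466f-3p. Their log2 fold changes in the added fit were 1.18 and 0.98, and without scaling 0.026 and -0.18, so the rise of miR-466f-3p and miR-467f turned sign without scaling. With spike-in controls none of the 3 passed, at 0.71, 0.51 and, for miR-467f, 0.37. None passed with the mean of all miRNAs either, and only miR-466i-3p passed with the 75th percentile of the shared miRNAs. All 3 passed with the 75th percentile over the array. MiR-467f did not pass without non-treated replicate 2 or 4, or without treated replicate 1 or 4. MiR-466f-3p did not pass without non-treated replicate 2, nor when any treated array was left out. MiR-466i-3p did not pass without treated replicate 3. Both probes of miR-466i-3p and all 4 of miR-466f-3p had a higher mean scaled signal on the treated arrays, by 1.98 and 2.35 times and by 1.36 to 3.07 times. The remaining detected members, miR-466b-3p (-1.16, adjusted p = 0.0475) and miR-467d* (-0.54, adjusted p = 0.143), did not pass.

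By scaled signal, of the 41 members, 6 (14.6%) had all treated arrays below all non-treated arrays and 3 (7.32%) above, against 21.7% and 13.4% of all 696 miRNAs. Of the 32 members inside Sfmbt2, 5 were lower without overlap and 0 higher, and 1 of these 5, miR-467c, was detected on no array. Outside it, 2 of 6 were higher (miR-467f and miR-466i-3p) and 1 was lower (miR-669n), and of the 2 with hairpins in both places miR-466f-3p was higher. These counts were not tested and rest on the scaling chosen. The miR-467 family held members of both directions, miR-467f above and miR-467b below.

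Outside the families, 6 miRNAs of the array hold ACACAC or UGUGUG, namely miR-1187, miR-291a-3p, miR-362-3p, miR-568, miR-574-3p and miR-574-5p. Of these, 4 were tested, 0 were called higher and 2 lower, where 23.3% of all 236 miRNAs tested were called higher and 31.8% lower. The 2 are both strands of the miR-574 hairpin, so the count is no result about the repeat. The 4 tested had a median log2 fold change of -0.45 against -0.084 over all miRNAs tested. They are printed here beside the members because they carry like repeats, again with the seed in capitals.
miR-574-5p: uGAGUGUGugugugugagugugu
miR-574-3p: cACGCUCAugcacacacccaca
miR-1187: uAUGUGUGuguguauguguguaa
miR-362-3p: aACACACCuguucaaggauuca

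MiR-574-5p, detected on all 7 arrays with a UG run of 13 bases, had signals of 31.8, 32.8, 22.4 and 31.1 on the non-treated arrays and 7.36, 9.74 and 5.41 on the treated. Treated minus non-treated, this gave -0.84 on the log2 scale with a standard error of 0.095 (limma adjusted p = 2.09e-04). MiR-574-3p, from the other strand of the same hairpin, was detected on all 4 non-treated arrays and 0 treated arrays. Set against the limits of the treated arrays, it was at least 1.95-fold higher on the non-treated. Its limma difference was -1.03 with a standard error of 0.080 (adjusted p = 3.24e-05). It entered the test through the non-treated arrays alone. Its treated mean log2 signal of 2.61 lay close to the floor of 2.55, so the standard error and p-value rest on the floor as well. MiR-362-3p, which holds a CA run of 6 bases, had a log2 fold change of -0.061, and miR-1187, with a UG run of 11 bases, had -0.0018. Neither passed. The CA runs differed in length, at 12 bases in miR-467f (higher), 7 in miR-574-3p (lower) and 6 in miR-362-3p (near 0). In the added fit, miR-466i-3p, with a run of 11, was at 1.18. MiR-467g, with a run of 9 and detected on no array, was at 0.49 (limma adjusted p = 0.21). Whether the repeat bears on the signal was not tested.

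Markers of other cell types moved with the labels. These lists were chosen with earlier results of these data known, and several of their miRNAs are in the study's own list of differing miRNAs. Their counts are therefore no independent result. Over all 236 miRNAs tested, 31.8% were called lower and 23.3% higher on the treated arrays. All 4 miRNAs of white blood cells were lower on the treated arrays (median log2 fold change -1.86), as were 3 of 3 of fibroblasts (-2.51). Of those of red blood cells 2 of 2 tested were higher (2.13), as were 2 of 2 of kidney tubules (3.08). Their part in the members' values was not tested.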

How the data were processed

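Per array, the authors deposited the scanner text file made by Agilent Feature Extraction 10.7.3.1. Its processed signal is a background-subtracted intensity on a linear scale, not normalized between arrays. A deposited table of processed values, also intensity, holds the first spot of each probe for 6 arrays and, for treated replicate 4, the error estimate, and was used as an alternative. Detection is Agilent's call per miRNA. Arrays have no read depth, and their number limits the precision.

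Control spots and outlier spots were dropped, spots averaged by probe and probes added up by miRNA. Arrays were brought to 1 mean log2 signal over the 186 miRNAs detected throughout, then floored at the highest, over arrays, of the lowest detected signal (5.85, with treated replicate 4 at -1.78, or 6.71 if signals below 0 are left out), and tested in log2 with limma 3.58.1 (R 4.3.3), with a Benjamini-Hochberg adjusted p below 0.01 over all miRNAs tested. The study's methods state log2 values, normalization to the array mean and a t-test. The fit was tested on simulated data. Members were taken by name, and every member tested or detected is named, with values per array for those past the threshold or detected everywhere. Members and lists (repeat miRNAs, cell types) were chosen with earlier results of these data known. Alternatives covered scaling, signal, background, filter, floor, test, threshold, replicate block and each array left out. Sequences and gene positions are from RefSeq (GRCm38.p6). Slide and scan were not used as blocks, since the arrays share 1 of each. The human samples, PCR and serum data of the study were not analysed here.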

Additional observations from a re-analysis of the deposited data

Results flagged for a closer look

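Groups of 4 arrays were checked for an array far from the others, as the gap to its nearest neighbour over the whole range of the group, and 2 of 16 checks passed the limit, where chance gives about 5%. The signal of miR-467d* on non-treated replicate 2, 5.93 against 2.94 to 3.22 on the other 3, gave 0.906, and it was the only array that detected this member. The mean log2 signal of the 186 shared miRNAs on non-treated replicate 3, 6.65 against 7.40 to 7.52, gave 0.859, and this array detected the fewest members of its label, at 3.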

How the results depend on the processing

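As reported, 130 miRNAs passed (55 higher, 75 lower), 2 of them members (1 higher, 1 lower). Members called fell to 1, with 0 higher, under the 75th percentile of shared miRNAs, the mean of all miRNAs (36 miRNAs higher, 121 lower), no scaling (7 and 162), spike-in controls (143 lower) and Agilent's summed signal, the member called being miR-669f-3p each time. With the deposited table without treated replicate 4 (added after seeing the data; 47 lower) members called were also 1, with 0 higher, but this was miR-467b (-0.96, limma adjusted p = 7.31e-04), while miR-669f-3p did not pass (-0.78, adjusted p = 0.0480). The 75th percentile of all miRNAs left 47 lower. With the deposited table, whose column for treated replicate 4 holds error estimates, limma called 56 miRNAs (27 higher, 29 lower), and with normexp at an offset of 50 it called 59 (25 and 34). Both called 0 members in either direction and 0 at an unadjusted p below 0.05, and miR-669f-3p turned to 0.012 and 0.011. MiR-467f turned to -0.31 without scaling. Without a detection filter 4 members were called, 3 of them higher. With the floor lowered to 1.46 alone, 2 were lower, with miR-467b at -1.59, and with both changes (added) 8, of which 3 higher and 5 lower. The stricter detection call gave 6 members detected. With each array left out in turn, members called higher ran from 1 to 2 and miRNAs called from 112 to 146, miR-467f from 0.71 to 0.93 and miR-669f-3p from -0.86 to -0.74. Over the 26 alternatives miR-467f kept its direction and side of the threshold in 18, and miR-669f-3p in 23. With the replicate number as a block, 108 miRNAs were called, miR-467f was at 0.79 and miR-669f-3p at -0.77, both past the threshold. Deviations of arrays with the same number correlated at -0.056, -0.064 and 0.18. These values show no clear shared shift, but they cannot exclude that the numbers pair the arrays.

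Most members lie near background, so their signals carry the spread of the spots, and the treated arrays detect fewer miRNAs and have a higher detection limit. Members with like sequence can share probe signal. Which label stands for obstruction is not settled. The cause of the changes between settings was not tested.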
